A study of Mus musculus with 6 samples.

Results

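Cytosolic ribosomal protein genes encode the protein subunits of the ribosome that translates nuclear-encoded mRNAs. They were taken as every row of the count table named Rpl, Rps or Rplp with a number, plus *Rpsa*, without pseudogene names, the *Rps6k* kinases and *Rps19bp1*. The table held 96 rows whose names begin this way, 14 were dropped, and 82 of its 13809 genes remained, 49 of the large and 33 of the small subunit. All 82 passed the filter on low counts, so each was tested among 13804 genes. *Rpl26*, *Rpl30*, *Rpl10l*, *Rpl39l* and *Rps27rt* were not analysed here, and the subunits *Fau* and *Rack1* (listed as *Gnb2l1*), which the name rule does not reach, are described with the related genes.

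A ribosome holds a single copy of nearly every one of these proteins, and the genes are transcribed at closely matched and high levels in almost every tissue, the growing heart included. Their mRNAs begin with a C and a run of pyrimidines, the terminal oligopyrimidine (TOP) tract, through which mTORC1 and the protein LARP1 control how actively they are translated. A few genes have paralogs that take the place of the usual subunit in some tissues, such as *Rpl3l* in striated muscle.

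At embryonic day 18.5, the series compared WT embryos with embryos homozygous for a CRISPR/Cas9 deletion in the *Pkm* exon that only *Pkm1* uses (KO). The deletion was made in zygotes of hybrids of C57BL/6J and DBA/2 mice. The background of the embryos sequenced is not given in the study's text. Each genotype had 3 libraries, made from total RNA of the heart (ventricular tissue in the study's text) after removal of ribosomal RNA. Since the table gives the genotype of a column and nothing more, the letters a, b and c stand for the order of the columns within a genotype. *Pkm* was at 1294, 1296 and 1366 CPM (counts scaled to library size with edgeR's TMM factors) in WT and at 547, 530.3 and 548.5 CPM in KO. Library totals ran from 15567624 to 19875546 counts. Every KO library held *Xist* at 2237 to 2332 CPM and 0 counts of 4 Y-linked genes, whereas every WT library held these 4 genes and *Xist* at no more than 5.79 CPM, so genotype and sex cannot be told apart. WT c stood apart from the other WT libraries: the chi-square of its counts against theirs was 3.24 and 3.76 per degree of freedom, beside 1.56 to 1.88 for the other pairs within a group. No pair differed by as little as sampling noise. Of 10 cardiomyocyte markers 7 were lower and 2 higher in KO, beside 15.7% and 14.6% of all genes tested. Their summed level was 138400 to 142500 CPM in WT and 131700 to 133000 CPM in KO. All genes tested summed to 1011000 to 1025000 CPM in WT and 983100 to 984300 CPM in KO. Of 6 atrial markers 3 were higher and none lower (595 to 601 CPM in WT and 1006 to 1030 CPM in KO). Of 7 fibroblast markers 3 were lower and none higher, and of 5 epicardial markers 2 were higher and none lower. Endothelial (2 of 7), smooth muscle (1 of 4) and erythroid (1 of 3) markers had as many higher as lower. Of 6 immune markers 1 was lower. The part of these differences in the results below was not tested.

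Promoters of 62 of the 82 genes were found in RefSeq (GRCm38.p6), each running from 250 bases before to 50 bases after the annotated start. The windows below show the starts of a few genes of the family, with those of *Rplp0* and *Rpsa*, the lower genes with the smallest adjusted p, beside them. They are examples and were not picked to stand for a typical gene. Each runs from 60 bases before to 25 bases from the start on, on the gene's own strand, with the longest pyrimidine run led by C in capitals. They lie at chr2:26910747-26910831 (*Rpl7a*, plus strand), chr4:86857343-86857427 (*Rps6*, minus), chr2:39005107-39005191 (*Rpl35*, minus), chr11:98026864-98026948 (*Rpl19*, plus), chr7:4792905-4792989 (*Rpl28*, plus), chrX:37085198-37085282 (*Rpl39*, minus), chr5:115559407-115559491 (*Rplp0*, plus) and chr9:120127706-120127790 (*Rpsa*, plus).
*Rpl7a*: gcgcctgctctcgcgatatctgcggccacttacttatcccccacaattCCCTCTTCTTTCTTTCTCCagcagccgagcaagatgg
*Rps6*: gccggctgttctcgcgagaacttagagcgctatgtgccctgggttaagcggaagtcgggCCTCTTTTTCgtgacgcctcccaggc
*Rpl35*: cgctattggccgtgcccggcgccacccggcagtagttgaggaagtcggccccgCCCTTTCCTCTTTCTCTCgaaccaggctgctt
*Rpl19*: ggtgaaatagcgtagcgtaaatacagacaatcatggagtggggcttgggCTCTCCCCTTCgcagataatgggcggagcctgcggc
*Rpl28*: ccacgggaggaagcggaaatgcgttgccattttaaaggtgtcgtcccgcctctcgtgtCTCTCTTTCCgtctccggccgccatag
*Rpl39*: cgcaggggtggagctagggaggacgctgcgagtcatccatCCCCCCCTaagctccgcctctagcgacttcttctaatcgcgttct
*Rplp0*: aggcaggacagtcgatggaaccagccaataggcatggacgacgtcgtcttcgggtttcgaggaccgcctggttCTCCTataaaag
*Rpsa*: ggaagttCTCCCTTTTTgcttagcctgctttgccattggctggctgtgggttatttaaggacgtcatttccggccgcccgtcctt
The run spans 19 bases in *Rpl7a* and 18 bases in *Rpl35* and starts a few bases before the annotated start. It has 5 bases in *Rplp0* and begins 53 bases before the start in *Rpsa*. Over the family such runs had from 3 bases (*Rpl37* and *Rps3a1*) to 20 bases (*Rpl27a*), so those of *Rpl7a* and *Rpl35* are among the longest. Runs shorter than that of *Rplp0* stand in other members, such as *Rpl41* and *Rpl9* (4 bases each). In *Rplp0* the letters TATAAA stand after the annotated start. The run of *Rpsa*, of 10 bases, begins outside the 50 bases searched below. Whether these annotated starts are the ones used in the heart was not tested.

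Across the family, 12 of the 62 promoters (19.4%) had C and then 4 pyrimidines exactly at the annotated start, as did 2.6% of 10325 promoters of genes in the table and 2.5% of all 27025 promoters of the same length. A run of at least 8 pyrimidines led by C within 50 bases of the start, counted on the gene's strand and chosen after the data were seen, was present in 51 (82.3%), beside 27.7% of the table's genes and 28.7% of all promoters. CCGGAA, letters of the ETS motif, stood on either strand in 30 promoters (48.4%), beside 27.6% and 15.3%. CCAAT, the letters bound by NF-Y, stood in 21 (33.9%), beside 38.0% and 37.8%. TATAAA stood in 6 (9.7%), beside 7.3% and 14.2%, and ATGGCGGC, a core of the YY1 motif, in 4 (6.5%), beside 4.9% and 2.4%. All 4 words were searched on both strands, none contains another, and a match is no more than a match of letters. Of the 21 genes with CCAAT, 5 were lower in KO (median log2 fold change -0.048), and of the 41 without it 5 were lower (median -0.025). With the pyrimidine run near the start 6 of 51 were lower and without it 4 of 11. Over all genes tested 15.7% were lower, and the differences between promoter groups were not tested.

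Per length of transcript, 78 of the 82 genes lay within a band from 32.8 to 690 CPM per kb in WT, with a median of 293 CPM per kb. These 78 were at 22.3 CPM or more. The highest levels per length in WT were those of *Rpl41*, which encodes the smallest ribosomal protein (690.2 CPM per kb), *Rps29* (621 CPM per kb) and *Rpl31* (542 CPM per kb). The low end of the band holds *Rps20* at 32.8 CPM per kb, whose annotated transcript of 3706 bases is the longest of the family and lowers its level per length, and the paralogs *Rpl7l1* (40.1 CPM per kb) and *Rpl22l1* (40.3 CPM per kb). The other 4 genes stood far below it: *Rpl37rt* at 11.8, *Rps27* at 4.12, *Rpl34* at 1.94 and *Rpl3l* at 1.69 CPM per kb. Of these, *Rpl37rt* is annotated as a transcribed processed pseudogene and was kept by the name rule.

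**Figure D1:**
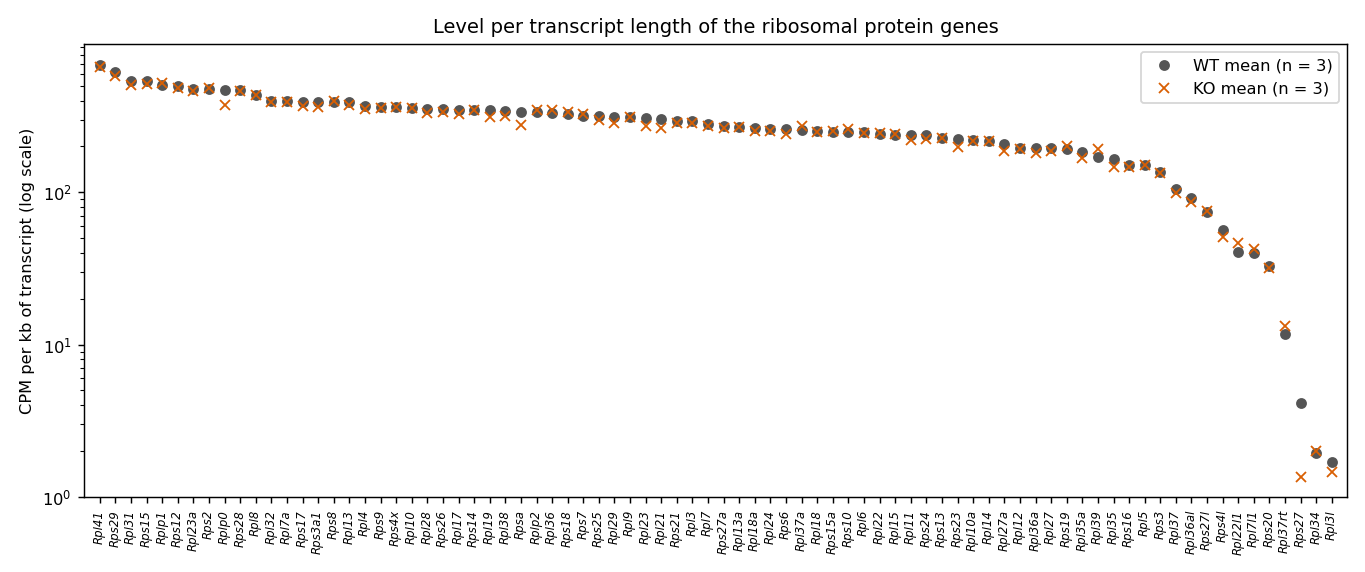
Level of 80 of the 82 genes in CPM per kb of transcript on a log axis, in order of the WT level, with circles for the WT mean and crosses for the KO mean of 3 libraries each. The circles and crosses lie close together along the curve, apart from *Rps27* at the low end, and 4 genes stand below the band of 32.8 to 690 CPM per kb.

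*Rps27* and *Rpl34* are core subunits, so their low values are read here with the counting in view. *Rps27*, a zinc-finger protein of the small subunit, had 25, 32 and 18 counts in WT a, b and c, and *Rpl34*, of the large subunit, had 10, 24 and 15. Of the 50-base words of the *Rps27* transcript, 98.6% also occur in other annotated genes, *Rps27rt* first among them, and of those of *Rpl34* 50.6%. How the authors' counting treated reads that fit several genes is not given in the sources used here, and the part of shared reads in these low counts was not tested. Shared words were common in the family: 80 of the 82 share some with an annotated pseudogene, the median share was 58.7%, and *Rpl3l* shared none. It had 33 to 45 counts in every library, beside 388 to 404 CPM of its paralog *Rpl3* in WT. The exons of 13 genes overlap another gene, 8 of them on the opposite strand, and whether the counting used strand is not given.

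In KO hearts, 12 ribosomal protein genes were lower and 1, *Rpl39*, was higher at an adjusted p under 0.05 in edgeR's quasi-likelihood test, and 69 passed in neither direction. Lower genes made up 14.6% of the family, beside a background of 15.7% of all genes tested, and the higher gene made up 1.22%, beside a background of 14.6%. Before adjustment, 20 were lower and 3 higher at p under 0.05, beside 2865 lower and 2758 higher of the 13804 genes tested. In bulk tissue, fewer cells of a type and less RNA per cell cannot be told apart. The log2 fold change was below 0 for 57 genes and above 0 for 25, with a median of -0.042 beside 0.0017 over all genes tested. Differences of single genes were small: the median size of the log2 fold change was 0.053, beside 0.13 over all genes, and 69 of the 78 genes at 10 CPM or more differed by less than 10% between the genotypes. All genes were not matched to the family for level. In related lists given below the median size was similar: 0.053 for initiation factors, 0.054 for TOP translation factors and 0.057 for mitochondrial ribosomal protein genes. For 59 of the 69 genes that were not called, the whole 95% interval lay within 0.2 of 0 on the log2 scale. All KO libraries lay below all WT libraries for 14 genes, beside a background of 21.4% of all genes, and above them for 5, beside a background of 21.0%.

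**Figure D2:**
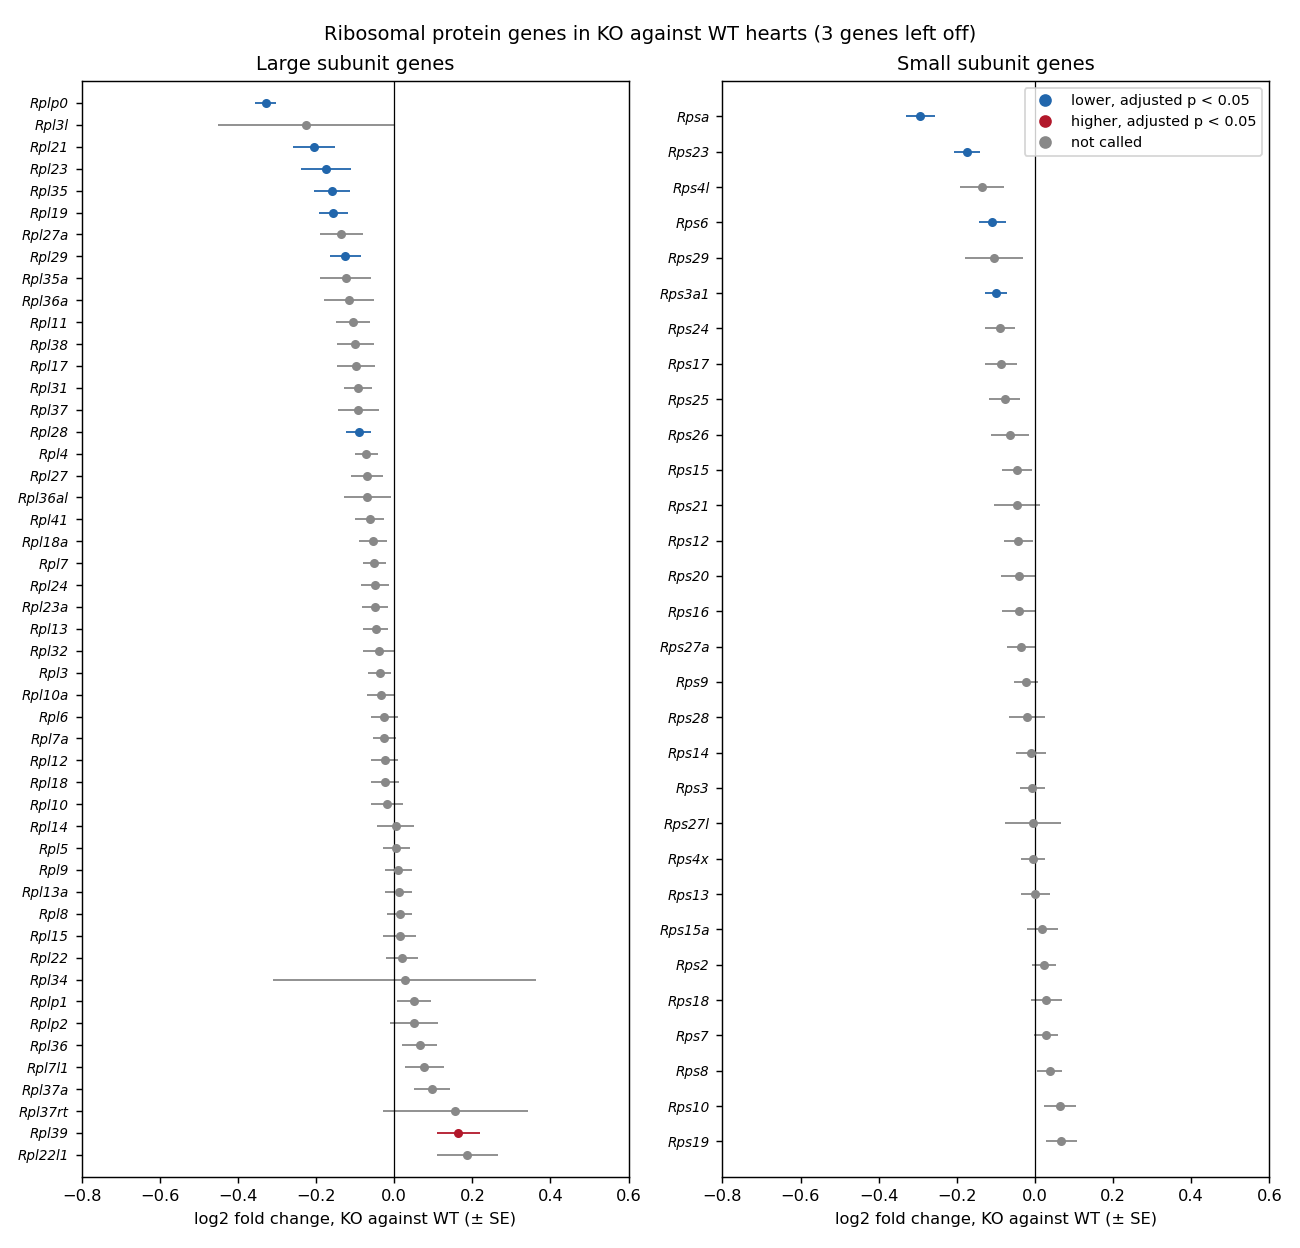
Log2 fold change of KO against WT with its standard error for each ribosomal protein gene shown, large subunit on the left and small subunit on the right, with genes lower in KO in blue, the higher gene in red and genes that were not called in grey. *Rplp0* and *Rpsa* lie at -0.33 and -0.29, most others lie within 0.2 of 0, and *Rps27* (-1.60) and 2 genes that were not called are left off.

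By subunit, the share of lower genes was near the background of 15.7%. Of the 49 large subunit genes 7 were lower (14.3%) and 1 higher (median log2 fold change -0.048), and of the 33 small subunit genes 5 were lower (15.2%, median -0.042). No small subunit gene was higher by edgeR's quasi-likelihood test, and none was at an unadjusted p under 0.05 or by the likelihood ratio test, the exact test, limma's voom or DESeq2. The share of all counts that fell on the 82 genes was 1.71%, 1.74% and 1.80% in WT a, b and c (1.75% ± 0.0425, SD, n = 3) and 1.76%, 1.75% and 1.71% in KO a, b and c (1.74% ± 0.0287, SD, n = 3), and the groups overlapped. After TMM scaling their summed level was 17320, 17690 and 18413 CPM in WT and 17307, 17236 and 16773 CPM in KO, which puts the KO mean 3.94% below the WT mean. Without *Rplp0* and *Rpsa* the KO mean was 2.83% lower, and set against WT a and WT b alone the 82 genes were 2.28% lower. Scaled in the same way, all genes tested summed to 1011000 to 1025000 CPM in WT and 983100 to 984300 CPM in KO. The KO sum was thus lower over all genes as well.

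*Rplp0* encodes the stalk base protein that carries the P1 and P2 dimers and through them recruits elongation factors. It was the most abundant of the 82 genes by CPM, at 631, 638.5 and 654 CPM in WT a, b and c and 508, 499 and 524 CPM in KO a, b and c. Every KO library lay below every WT library by a wide gap, and the means were 641 ± 11.4 CPM and 510.2 ± 12.4 CPM (SD, n = 3 each). On the log2 scale the change was -0.33 (standard error 0.0276, adjusted p = 4.74e-10 by edgeR's quasi-likelihood test). The gene lies on chr5:115559467-115563727 (GRCm38, plus strand). Its partners on the stalk, *Rplp1* and *Rplp2*, were not called. *Rplp1* was at 236, 245 and 277.5 CPM in WT and 256, 274 and 255 CPM in KO (log2 fold change 0.051, adjusted p = 0.401), and *Rplp2* was at 132.5, 127 and 165 CPM in WT and 156, 142 and 141 CPM in KO (0.051, adjusted p = 0.569). For both, WT c was above every KO library and WT a and b were below every KO library. Without WT c both were higher in KO.

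*Rpsa* encodes a small subunit protein also known as the laminin receptor precursor. It was at 514, 525 and 587 CPM in WT and 449, 447 and 429.5 CPM in KO, again without overlap. On the log2 scale the change was -0.29 (standard error 0.0363, adjusted p = 5.5e-07), and -0.24 without WT c. The gene lies on chr9:120127689-120132369 (plus strand). *Rpl4*, the other of the 3 highest genes by CPM, whose protein lines the exit tunnel, was at 550.5, 561 and 588 CPM in WT and 557, 535 and 526 CPM in KO (log2 fold change -0.072, adjusted p = 0.0709), and its groups overlapped.

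The next lower genes had smaller changes. *Rps23*, a protein of the decoding centre, was at 205, 207 and 219 CPM in WT and 188, 187 and 185 CPM in KO (log2 fold change -0.17, standard error 0.0344, adjusted p = 0.000334). *Rpl19*, which reaches across to the small subunit, was at 251, 251 and 280.0 CPM in WT and 237, 234 and 229.9 CPM in KO (-0.16, adjusted p = 0.00237). *Rps3a1*, near the mRNA exit, was at 380.4, 379 and 387 CPM in WT and 358, 356 and 356 CPM in KO (-0.099, adjusted p = 0.00921). In each of the 3 the groups did not overlap, and KO was spread more narrowly than WT. *Rps27* had 8, 7 and 10 counts in KO, fewer than in any WT library, and changed by -1.60 on the log2 scale (standard error 0.336, adjusted p = 0.000638), on the few reads of a shared sequence given above. These 4 genes, *Rplp0* and *Rpsa* were called lower under every alternative in which they were tested.

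The calls of the other lower genes were lost when single libraries were left out. *Rpl35*, which sits at the tunnel exit, was at 148, 147 and 173 CPM in WT and 141, 139.7 and 137 CPM in KO (log2 fold change -0.16, adjusted p = 0.0109), and without WT c its change was -0.083 (adjusted p = 0.0599, and at most 0.061 over all alternatives, reached without KO c). Its exons overlap those of *Arpc5l* and *Wdr38* on the opposite strand. *Rpl21* was at 246, 259.5 and 312 CPM in WT and 249, 233 and 226 CPM in KO (-0.21, adjusted p = 0.00479). WT a lay below KO a, so the groups overlapped, and the call was lost without KO c and by DESeq2. Without WT c the change of *Rpl21* was -0.10. *Rps6*, the small subunit protein that S6 kinase phosphorylates downstream of mTORC1, was at 227, 222 and 234 CPM in WT and 217, 209 and 206.5 CPM in KO (-0.11, adjusted p = 0.016). *Rpl29* was at 175.7, 189 and 180.5 CPM in WT and 163, 161 and 175.6 CPM in KO (-0.12, adjusted p = 0.0157), with WT a and KO c almost level. *Rps6* lost its call without KO b or KO c and with upper quartile scaling, and *Rpl29* without WT b, KO a or KO b. *Rpl23* and *Rpl28*, named after their values were seen, were also lower (-0.17, adjusted p = 0.0424, and -0.091, adjusted p = 0.0321). Without WT c the change of *Rpl23* was -0.043 (adjusted p = 0.345, and at most 0.442 over all alternatives). *Rpl23* also lost its call without KO b or KO c and by voom, DESeq2 and upper quartile scaling. *Rpl28* lost its call without WT b, KO b or KO c, by DESeq2, with upper quartile scaling and with the length trend removed.

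**Figure D3:**
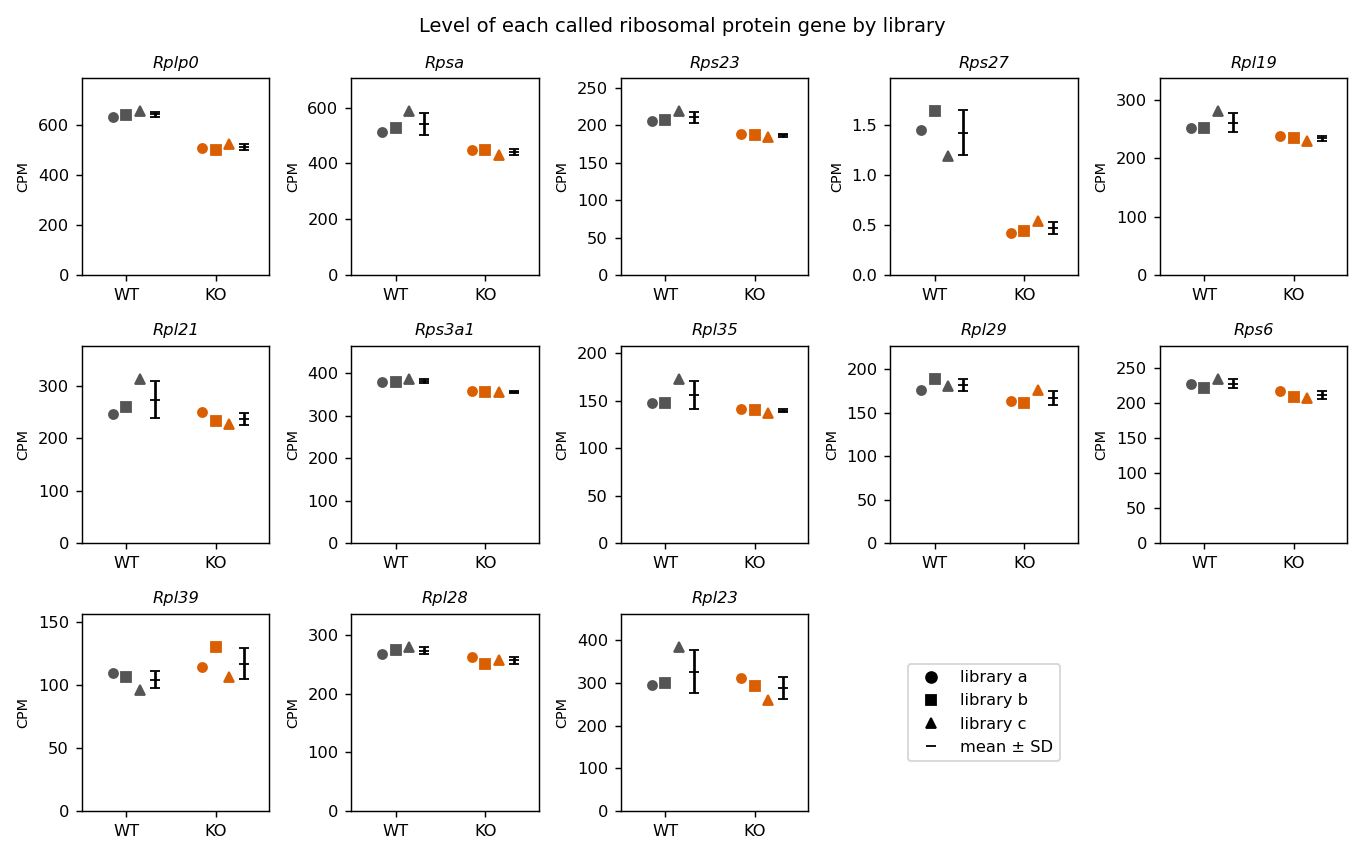
CPM of each of the 13 called genes in the 6 libraries, each panel on its own axis from 0, with WT in grey, KO in orange, circles, squares and triangles for libraries a, b and c, and bars for the mean ± SD of 3 libraries. *Rplp0*, *Rpsa* and *Rps27* show the widest gaps between the genotypes, and in *Rpl21*, *Rpl23* and *Rpl39* the groups overlap.

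*Rpl39*, a short protein lining the exit tunnel and encoded on the X chromosome, was the only gene called higher. It was at 109, 107 and 96.5 CPM in WT and 115, 130.5 and 106 CPM in KO. KO c lay below WT a and WT b, so the groups overlapped, and the change was 0.16 on the log2 scale (standard error 0.0552, adjusted p = 0.0247). The call was lost by DESeq2 and without WT b, KO a or KO b. The other 3 X-linked genes of the family were not called. *Rps4x*, whose Y-linked counterpart is found in humans, was at 352, 360.2 and 358 CPM in WT and 347, 370.3 and 350.0 CPM in KO (log2 fold change -0.004, 95% interval -0.067 to 0.059). *Rpl10*, which joins late near the peptidyl transferase centre, was at 302, 301 and 261 CPM in WT and 278, 282.5 and 293 CPM in KO (-0.018, -0.10 to 0.067), and was called lower without WT c (-0.084). *Rpl36a* was at 89.4, 87.0 and 107 CPM in WT and 90.7, 93.2 and 77.5 CPM in KO (-0.12, -0.25 to 0.016).

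No gene of a paralog pair was called apart from *Rps27* and *Rpl39*. *Rpl22l1* was at 22.9, 24.1 and 19.8 CPM in WT and 24.5, 27.9 and 24.3 CPM in KO, every KO library above every WT library (log2 fold change 0.19, standard error 0.0784, adjusted p = 0.0728), and it was called higher without WT b and with upper quartile scaling. *Rpl22*, with which its coding sequence shares 72.1% of bases, was at 112, 117 and 114 CPM in WT and 117, 121 and 111 CPM in KO (0.019, adjusted p = 0.759). *Rpl3l* was at 2.61, 1.94 and 2.43 CPM in WT and 1.75, 2.46 and 1.77 CPM in KO (-0.23, 95% interval -0.69 to 0.24), and *Rpl3* at 391, 404 and 388 CPM in WT and 377.5, 386 and 389 CPM in KO (-0.038, adjusted p = 0.355). The interval of *Rpl3l* is wide enough to hold a change of either sign. *Rpl7l1*, a nucleolar relative of *Rpl7*, lay above every WT library in every KO library (52.5 ± 0.731 CPM in WT and 55.4 ± 0.566 CPM in KO, SD, n = 3 each, 0.077, adjusted p = 0.25), while *Rpl7* lay below (327 ± 2.29 and 316 ± 1.05 CPM, -0.051, adjusted p = 0.192). *Rpl36al* (-0.069, adjusted p = 0.414) and *Rps27l* (-0.0047, adjusted p = 0.968) were not called. *Rps4l*, annotated as a transcribed processed pseudogene and kept by the name rule, was at 44.5, 43.6 and 45.0 CPM in WT and 39.1, 39.4 and 42.6 CPM in KO (-0.14, adjusted p = 0.0691), and was called lower without KO c.

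Several of the most studied members were not called. *Rpl5* and *Rpl11*, which with the 5S rRNA bind *Mdm2*, had log2 fold changes of 0.0059 (95% interval -0.064 to 0.075) and -0.11 (-0.20 to -0.017, adjusted p = 0.0644). *Rpl11* was called lower without WT a and with WT a and b summed. *Rps13*, *Rps3* and *Rpl14* lay at 0.0008, -0.0064 and 0.0035, and *Rpl14*, with WT at 207.5, 205 and 249 CPM, was called higher without WT c. *Rps19*, named in Diamond-Blackfan anaemia, was at 125, 124 and 116.5 CPM in WT and 126, 131 and 126 CPM in KO, with every KO library above every WT library (0.068, adjusted p = 0.197). These genes were named for their known roles or after their values were seen.

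Libraries of 1 genotype differed in these genes. WT c was the highest of the 6 libraries for 45 of the 82 genes and the lowest for 13, and KO c was the lowest for 35 and the highest for 1. Relative to WT a and b, WT c was higher by a median of 0.063 on the log2 scale, from -0.38 in *Rps27* to 0.46 in *Rps29*. Among the higher ones were *Rpl23* (0.37), *Rplp2* (0.35), *Rps21* (0.31) and *Rpl21* (0.30), and among the lower ones *Rps27l* (-0.33), *Rpl22l1* (-0.24), *Rpl10* (-0.21) and *Rpl15* (-0.18). The coefficient of variation within WT had a median of 5.08%, against 1.80% for WT a and b alone and 3.87% within KO. Over the 78 genes at 10 CPM or more, the ratio of WT c to WT a and b had a Pearson r of -0.05 with log2 transcript length, 0.05 with GC content and -0.08 with the share of words held by other genes (Spearman rho -0.07, -0.02 and -0.14). These points share the same 3 libraries. Over all genes the same ratio had a median of 0.036 for 449 genes with transcripts under 600 bases, 0.037 for 834 of 600 to 1000 bases and -0.0038 for 12425 longer ones. Without WT c, 12 of the 82 genes were lower, beside 16.7% of all genes, and 10 of them were among the 12 given above. In the same fit 4 were higher (*Rpl14*, *Rpl39*, *Rplp1* and *Rplp2*), beside 14.6% of all genes. Without WT a 23 were lower, beside 14.8% of all genes.

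**Figure D4:**
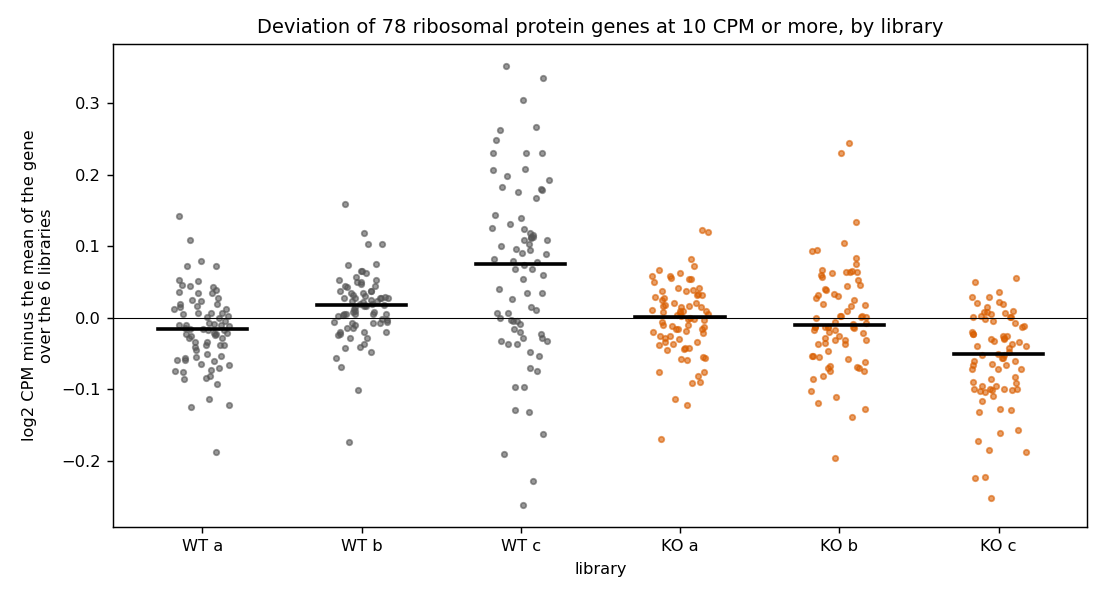
Deviation of the log2 CPM of each of 78 ribosomal protein genes at 10 CPM or more from its mean over the 6 libraries, with 1 point a gene, WT in grey, KO in orange, and a bar at the median of each library. The points of WT c spread most widely, in both directions, and their median is the highest, while the median of KO c is the lowest.

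By length, 2 of 30 genes with transcripts under 600 bases were lower in KO, 7 of 33 with 600 to 1000 bases and 3 of 19 with longer ones (6.67%, 21.2% and 15.8%, beside 15.7% of all genes), with medians of -0.041, -0.035 and -0.042. Over the 78 genes at 10 CPM or more, the log2 fold change had a Pearson r of -0.21 with log2 transcript length (Spearman rho -0.15), -0.2 with the log2 level per kb (rho -0.09) and -0.06 with GC content (rho 0.07). All of these are descriptions over genes of the same 6 libraries.

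Of the subunits outside the name rule, *Fau*, the fusion that yields *Rps30*, had a log2 fold change of -0.064 (adjusted p = 0.237), and *Gnb2l1*, the scaffold protein of the small subunit head, 0.045 (adjusted p = 0.273). A list of 14 other genes whose mRNAs carry a TOP tract, translation factors and a few genes of other roles such as *Tpt1* and *Hnrnpa1*, held 3 lower (21.4%, beside 15.7% of all genes) and 1 higher, with a median of -0.015. *Eef2*, the translocase that binds the stalk, was at 1684, 1708 and 1791 CPM in WT and 1576, 1572 and 1606 CPM in KO (-0.12, adjusted p = 0.000272). *Eef1a1* (-0.054, adjusted p = 0.0416) and *Eif3a* (-0.088, adjusted p = 0.0305) were lower as well and *Eef1d* was higher (0.15, adjusted p = 0.0127).

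Ribosome biogenesis genes, which make and assemble the subunits, had a median above 0. Of 42, 10 were higher (23.8%, beside 14.6% of all genes) and none lower (beside 15.7%) by edgeR's quasi-likelihood test (median log2 fold change 0.069), with 13 higher and 2 lower at p under 0.05 before adjustment and 6 to 10 higher and 0 lower over the 5 tests run. *Nle1*, a factor of large subunit maturation, was at 7.65, 7.96 and 7.56 CPM in WT and 13.1, 10.7 and 13.2 CPM in KO (0.68, adjusted p = 2.5e-05). *Tsr1*, a factor of small subunit maturation, rose from 17.6 to 23.8 CPM (0.43, adjusted p = 4.9e-05), and *Nop2*, an rRNA methyltransferase, from 34.7 to 43.2 CPM (0.32, adjusted p = 0.000228). Of 13 genes of RNA polymerase I and rDNA transcription, 5 were higher and 2 lower (38.5% and 15.4%, beside 14.6% and 15.7% of all genes, median 0.078). *Polr1e*, a subunit of the polymerase, fell from 57.9 to 35.1 CPM (-0.72, adjusted p = 9.74e-11), whereas *Taf1c* (0.71, adjusted p = 0.000515) and *Polr1b* (0.34, adjusted p = 0.00328) rose. The 45S rRNA precursor gene *Rn45s* took 2.21% to 2.48% of counts in WT and 2.70% to 2.79% in KO, in libraries from which rRNA had been removed.

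Genes that act on the family were called in both directions. Of 13 transcription factors of ribosomal protein genes 1 was lower and 3 were higher (7.69% and 23.1%, beside 15.7% and 14.6% of all genes): *Myc* fell from 54.3 to 23.3 CPM (log2 fold change -1.22, adjusted p = 6.96e-15), while *Nfya* (0.27, adjusted p = 0.000692), *Nfyc* (0.22, adjusted p = 0.000773) and *Sp1* (0.12, adjusted p = 0.0174) rose. Of 20 genes of mTORC1 and the control of TOP mRNAs 3 were lower and 4 higher (15% and 20%, beside the same 15.7% and 14.6%, median 0.016), among them *Sesn1* at -0.41 (adjusted p = 2.41e-07) and *Tsc1* at 0.27 (adjusted p = 0.000207), which both restrain mTORC1. Of 13 chaperones and quality control factors 1 was lower, *Pelo*, which rescues stalled ribosomes (-0.61, adjusted p = 2.58e-09), and 1 was higher, *Ltn1* (0.13, adjusted p = 0.0399), or 7.69% each. Of 25 initiation factors 1 was lower and 3 higher (4% and 12%), with the X-linked *Eif2s3x* from 77.1 to 122.8 CPM (0.67, adjusted p = 6.5e-12). Of 77 mitochondrial ribosomal protein genes, which serve the other ribosome of the cell, 4 were lower (5.19%, beside 15.7% of all genes) and none higher (beside 14.6%) by edgeR's quasi-likelihood test (median 0.0066), with 7 lower and 3 higher at p under 0.05 before adjustment and 0 to 2 higher over the 5 tests.

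**Figure D5:**
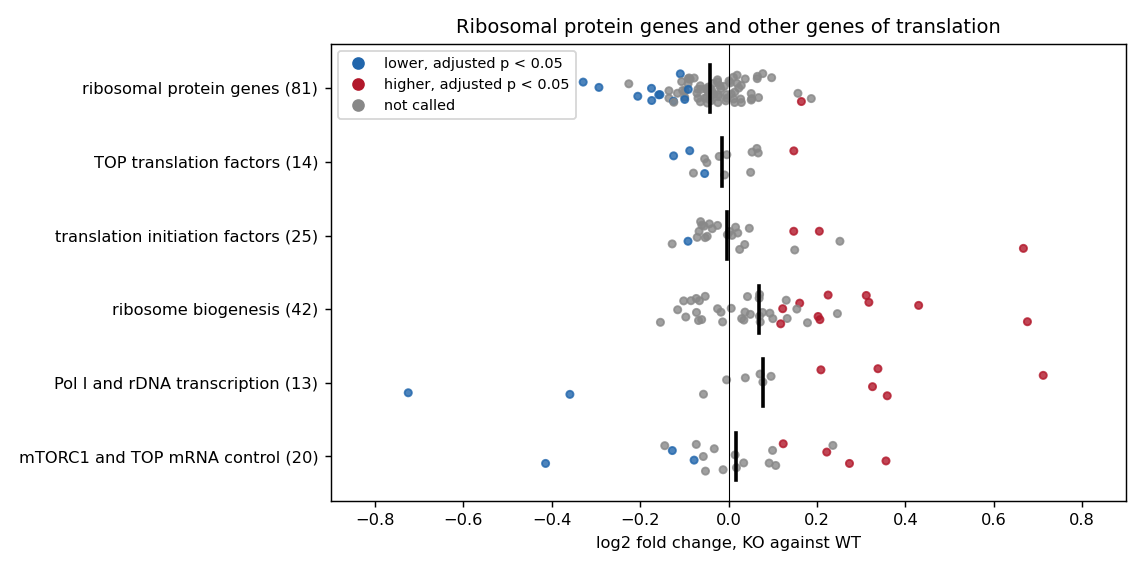
Log2 fold change of KO against WT for each gene of 6 groups, with genes lower in KO in blue, higher in red and not called in grey, a bar at the group's median, and *Rps27* (-1.60) left off. Ribosomal protein genes have a median of -0.042. The median size of their change (0.053) is near that of the TOP translation factors (0.054) and the initiation factors (0.053). To the right, as higher calls, lie 10 of 42 ribosome biogenesis genes and 5 of 13 genes of RNA polymerase I.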

How the data were processed

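Total RNA of WT and KO hearts (3 libraries each) had been depleted of ribosomal RNA (KAPA RiboErase) and sequenced as paired reads. Per the labels, the authors used cutadapt 1.18, HISAT2, StringTie and mm10. The counting program, its annotation, its use of strand and its handling of reads that fit several genes are not given in the sources used here. They deposited a table of gene symbols in which the authors give unnormalized counts for each library. Their own fold changes, average levels, p-values and false discovery rates in the same table were not used. Library totals ran from 15567624 to 19875546 counts. The study calls the 3 libraries of a genotype biological replicates, and whether a library is 1 embryo is not stated.

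The tests were run with edgeR 4.0.16 (R 4.3.3): filterByExpr (13804 genes kept, 5 left out), TMM, and the quasi-likelihood test of genotype, adjusted by Benjamini-Hochberg over all genes tested, with a threshold of 0.05. CPM are counts scaled to library size after TMM. Every adjusted p in the text is from this test unless another is named. No test was run over the list. Alternatives used the likelihood ratio and exact tests, limma 3.58.1 (voom), DESeq2 1.42.0, other scalings and filters, the removal of a length trend, and each library left out. The script was tested on simulated data with a known set of changed genes. Symbols were matched to the GENCODE annotation of GRCm38 (13299 directly, 414 by an older symbol, 96 not matched), and 1 transcript per gene, the shortest of its principal isoform, gave lengths, shared 50-base words and coding sequences, in place of a planned comparison of proteins. Promoters were from RefSeq (GRCm38.p6). Python 3.11.15 and matplotlib 3.10.9 drew the figures.

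The genes named are the 10 with the smallest adjusted p in each direction among those under 0.05, the 3 highest and 3 lowest by CPM, the paralog pairs, the X-linked genes, the stalk genes and *Rpsa*, and at most 4 genes of each related list, except where the text says otherwise. The values of 3 ribosomal subunit genes are not reported here. The members and lists were chosen with earlier results of these data known.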

Additional observations from a re-analysis of the deposited data

Results flagged for a closer look

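Of the annotated ribosomal protein pseudogene rows that the name rule leaves out, 3 are given here because every KO library lay above every WT library. Over all genes tested 21.0% did so. *Rpl14-ps1* had 61, 105 and 80 counts in WT and 139, 96 and 127 in KO, or 4.72 ± 1.03 CPM in WT and 6.75 ± 0.654 CPM in KO (SD, n = 3 each, log2 fold change 0.52, adjusted p = 0.0105 by edgeR's quasi-likelihood test). *Rps19-ps3* had 8, 22 and 7 counts in WT and 27, 26 and 31 in KO, or 0.682 ± 0.382 CPM in WT and 1.58 ± 0.129 CPM in KO (1.15, adjusted p = 0.00934). *Rps15a-ps6* had 26, 28 and 20 counts in WT and 34, 29 and 48 in KO, or 1.42 ± 0.0965 CPM in WT and 2.07 ± 0.439 CPM in KO (0.55, adjusted p = 0.0928). The functional genes of the same names, *Rpl14* (0.0035), *Rps19* (0.068) and *Rps15a* (0.019), were not called. The part of reads shared between the pseudogenes and other genes in these low counts was not tested.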

How the results depend on the processing

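No paired analysis was possible because no column of the table carries a number that would pair libraries. The median log2 fold change of the 82 genes stayed below 0, from -0.065 to -0.023, under all 19 alternatives. The count of lower genes was 9 by DESeq2 (beside 11.9% of all genes) and with upper quartile scaling (beside 13.6%). It was 16 with WT a and b counted as 1 library (beside 14.8%). With 1 library left out it was 8 (without KO c, beside 12.6%) to 23 (without WT a, beside 14.8%). The count of higher genes was 0 by DESeq2 (1 at its unadjusted p under 0.05), beside 9.87% of all genes. It was 0 without the X and Y chromosomes (beside 14.7%), where *Rpl39* was not tested. Upper quartile scaling gave 2 (beside 16.7%) and moved the median of all genes to 0.020. With 1 library left out the count of higher genes was 0 to 4, beside 10.7% to 14.6% of all genes. Leaving *Ttn* out of the totals raised the share of counts on the family to 1.90% in WT and 1.89% in KO. Leaving out *Rn45s* raised it to 1.79% in WT and 1.79% in KO.

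Among 565 values of 30 single genes under the alternatives, 518 kept their direction and their side of the threshold, 18 lost the call, 7 gained one and 22 changed sign, all of the latter in 6 genes near 0. With upper quartile scaling, with the length trend removed and with WT a and b summed, the log2 fold change of *Rpl10* was 0.0011, 0.0012 and 0.010 and that of *Rps27l* 0.014, 0.0088 and 0.023. That of *Rps4x* was 0.015 and 0.016 under the first 2 of these. With 1 library left out, values ran from -0.084 to 0.016 for *Rpl10*, from -0.0079 to 0.052 for *Rpl22*, from -0.22 to 0.31 for *Rpl34*, from -0.026 to 0.17 for *Rplp2*, from -0.10 to 0.047 for *Rps27l* and from -0.033 to 0.014 for *Rps4x*. The cause was not tested. Depth limits *Rps27* and *Rpl34* most, with at most 32 counts a library and a standard error of 0.336 each, the widest of the 82 genes.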
